A study of Mus musculus with 132 samples.

Results

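The Hox genes of the mouse tibia were examined in 3 segments of cortical bone, in limbs that had been mechanically loaded and in the opposite, control limbs. Members were all gene symbols made of Hox, a cluster letter from a to d and a number, which gave 39 of the 23412 symbols in the table. They lie in 4 clusters, with 11 genes in cluster A, 10 in B, 9 in C and 9 in D. The libraries, 66 from loaded and 66 from control limbs, came from 22 female C57Bl/6J mice aged 10 weeks, with 6 from each mouse. The left tibia of every mouse received cyclic compression (9 N peak, 4 Hz, 1200 cycles per day) and the right tibia was the control, so loading and side of the body cannot be told apart. Each tibia gave 3 pieces of cortical bone: a metaphyseal shell at the knee end, then a proximal diaphysis piece, then a mid-diaphysis piece. Cancellous bone was discarded. Bones were taken 1 h (5 mice), 3 h (4 mice) or 24 h (4 mice) after 1 bout of loading. In a further 4 mice, here called 7 d, they were taken 24 h after the last of 7 daily bouts. The remaining 5 mice, here called 5 d, were loaded on 5 consecutive days and studied on day 8. All groups are wild-type animals of 1 strain and sex, and different times are different mice.

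Hox genes encode homeodomain transcription factors that set the identity of body segments and of limb segments in the embryo. The genes of a cluster are numbered from the 3′ end, which is used in anterior parts of the embryo, towards the 5′ end, which is used in posterior parts and in the distal limb. Genes with the same number in different clusters are paralogs. In mouse limbs, deletion of the group 10 paralogs affects the upper segment, that of group 11 the segment that holds the tibia, and that of group 13 the foot. Cells of the adult skeleton keep part of the Hox pattern of the place in which they formed.

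The positions of all 39 members were found in the GENCODE annotation of build mm10. Cluster A spans chromosome 6 from 52155590 to 52260880, B spans chromosome 11 from 96194316 to 96368256, C spans chromosome 15 from 102921103 to 103036852, and D spans chromosome 2 from 74668310 to 74765142. Exons of 9 members also belong to another annotated gene on the same strand, among them Hoxc10 with Hoxc5 and Hoxd3 with Hoxd4. Exons of 10 members lie over an exon of an antisense gene. How such reads were assigned is not given in the sources used here, so the values of these members are uncertain to that extent.

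The stretch of 250 bases before the transcription start (RefSeq, GRCm38.p6) is shown for 4 members, chosen to set a member well detected in this bone beside a neighbour or paralog that is not. Hoxd4 was among the expressed genes of cluster D and Hoxd10 was at or near 0. Hoxa10, the paralog of Hoxd10, and Hoxb4, the paralog of Hoxd4, were among the highest members. Capitals mark CpG dinucleotides, the sites of DNA methylation.
Hoxd10 (chr2:74691641-74691890, + strand): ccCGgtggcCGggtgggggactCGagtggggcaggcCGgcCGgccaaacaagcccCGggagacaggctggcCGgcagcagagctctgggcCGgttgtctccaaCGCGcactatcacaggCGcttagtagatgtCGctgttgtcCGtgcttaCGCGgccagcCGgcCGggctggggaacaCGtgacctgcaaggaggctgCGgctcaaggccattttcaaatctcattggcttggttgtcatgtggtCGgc
Hoxd4 (chr2:74721728-74721977, + strand): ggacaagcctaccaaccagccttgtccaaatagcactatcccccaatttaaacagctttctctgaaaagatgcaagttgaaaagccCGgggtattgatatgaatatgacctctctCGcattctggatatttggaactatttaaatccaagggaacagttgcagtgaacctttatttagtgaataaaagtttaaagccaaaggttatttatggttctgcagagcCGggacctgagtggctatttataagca
Hoxa10 (chr6:52240855-52241104, - strand): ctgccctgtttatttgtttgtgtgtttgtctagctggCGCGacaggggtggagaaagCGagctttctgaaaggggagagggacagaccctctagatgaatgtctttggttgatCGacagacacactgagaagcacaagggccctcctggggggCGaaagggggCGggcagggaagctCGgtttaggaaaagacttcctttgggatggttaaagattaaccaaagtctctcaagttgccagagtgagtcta
Hoxb4 (chr11:96318017-96318266, + strand): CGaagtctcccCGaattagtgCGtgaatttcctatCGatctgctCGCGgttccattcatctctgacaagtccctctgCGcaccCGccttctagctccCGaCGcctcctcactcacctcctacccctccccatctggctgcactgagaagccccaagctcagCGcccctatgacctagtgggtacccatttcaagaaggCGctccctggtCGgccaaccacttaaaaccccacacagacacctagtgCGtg
The Hoxd10 stretch holds 20 CpG and is 65.6% G and C. The Hoxd4 stretch holds 3 CpG at 40.4%, that of Hoxa10 holds 7 at 51.6%, and that of Hoxb4 holds 14 at 58%. Hoxa10 has another annotated start, whose stretch is not printed and holds 20 CpG. In GENCODE the Hoxd4 gene begins further upstream, at 74711929, so the printed stretch lies within the annotated gene and belongs to the RefSeq start alone. The GENCODE gene of Hoxd10 begins at 74691924, past the end of its printed stretch. The bases right after the RefSeq start of Hoxd10 were in none of its GENCODE transcripts. For these 4 genes the level in bone did not follow the order of the CpG counts. RefSeq starts were found for 22 of the 39 members, with 24 starts in all. Their median was 12.5 CpG, with a range of 2 to 35, against a median of 6 over 32851 starts of all genes. The 13 starts of expressed members had a median of 12 CpG and the 11 starts of the other members a median of 20. The binding motif of Hox and PBX proteins, searched as TGATNNAT on both strands, was in 4 of the 24 Hox stretches (16.7%) and in 7.68% of all stretches. It was in none of the 4 that are printed, which says only that these letters are not in these windows.

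Reads per library ranged from 290325 to 5410458, with a median of 1698314. The median was 1889382 in shell libraries, 1608865 in proximal and 1221379 in mid-diaphysis libraries. Osteoblast and osteocyte marker lists had reads in every segment. The summed level of 8 osteocyte markers ranged from 770 to 1696 in control shell, from 744 to 2459 in proximal and from 70.7 to 3861 in mid-diaphysis libraries. Libraries were made from the 3′ ends of mRNA, so a normalized count is not divided by gene length and levels of different genes are compared on this 3′ count scale. In pieces of bone, fewer cells of a type and less RNA per cell cannot be told apart.

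Of all libraries, 4 stand apart, and each is from the mid-diaphysis. They are the 1 h loaded limb of mouse 2, the 1 h control limb of mouse 3, and the 5 d loaded limbs of mice 4 and 5. They were known from earlier work on these data by high levels of Msln, Upk1b, Wt1 and Krt19, markers of mesothelium, the lining of body cavities. The summed level of the mesothelium markers was 1175 to 1306 in these 4 libraries, and its median over the whole set was 3.95. Among the control libraries 1 of 66 is affected and among the loaded libraries 3 of 66. Where a call or a direction turns on them, the value without them is also given.

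Most of the Hox code read in the tibia came from clusters C and A and from the middle of the clusters. Of 39 members, 23 had at least 1 read in at least 33 of the 66 control libraries and are called expressed here. They made up 6 of 9 members in cluster C, 8 of 11 in A, 7 of 10 in B and 2 of 9 in D. The share of members expressed, 58.97%, is close to the 56.62% of all symbols that meet the same rule. Of the summed mean Hox level in control limbs, cluster C held 49.8%, A 31.8%, B 15.3% and D 3.05%. By paralog group, groups 4 to 8 held 56.5%, groups 9 to 10 held 35.6%, groups 1 to 3 held 6.06% and groups 11 to 13 held 1.78%. With every library thinned to 290325 reads, 15 members met the rule, so the count depends on depth.

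**Figure D1:**
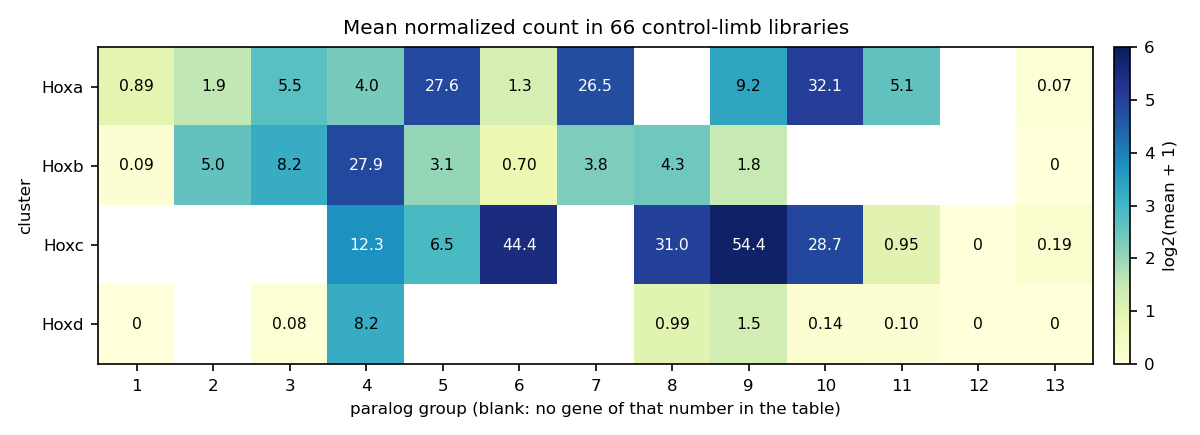
Mean normalized count of each Hox gene over 66 control libraries, arranged by cluster (vertical) and paralog group (horizontal); blank positions have no gene in the table. The highest values lie in the middle of clusters C and A, led by Hoxc9 at 54.4 and Hoxc6 at 44.4, and most of cluster D is near 0.

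Hoxc9 was the highest member, with a mean control level of 54.4 ± 27.8 normalized counts (SD, n = 66 libraries from 22 mice). Hoxc6 followed at 44.4 ± 23.7, Hoxa10 at 32.1 ± 19.3 and Hoxc8 at 31.0 ± 26.4. These are middling levels for the tissue, since the median control mean over the 13050 genes that passed the filter on low values was 30.0, and Hoxc9 stood at percentile 66.5 of them. Hoxc10 was at 28.7 ± 22.7, Hoxb4 at 27.9 ± 25.4, Hoxa5 at 27.6 ± 14.5 and Hoxa7 at 26.5 ± 16.8. From Hoxa10 to Hoxa7, neighbours in this order differed by far less than 1 SD, and their order is not resolved. The next members were Hoxc4 at 12.3 ± 8.09, Hoxa9 at 9.18, Hoxb3 at 8.20 and Hoxd4 at 8.16. The other expressed members lay between 1.47 (Hoxd9) and 6.48 (Hoxc5).

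The paralogs of group 11, whose loss in mice alters the tibia segment in development, were low. Hoxa11 had a mean of 5.07 and was the only one of the 3 that met the rule for expression. Hoxc11 had a mean of 0.954 and Hoxd11 of 0.101. Without the control library that stands apart, Hoxd11 was at 0.0119, Hoxc11 at 0.969 and Hoxa11 at 5.14. In group 10, Hoxa10 and Hoxc10 were among the top members and Hoxd10 was at 0.137, or 0.103 without that library. In group 13, Hoxa13 had a mean of 0.0694, Hoxc13 of 0.193 (0.133 without it), and Hoxb13 and Hoxd13 had no read in control limbs.

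Below the rule for expression, 11 members had reads in some control libraries, with means from 0.0694 (Hoxa13) to 1.33 (Hoxa6). Another 5, Hoxb13, Hoxc12, Hoxd13, Hoxd12 and Hoxd1, had none in the 66 control libraries, which allows a share of up to 2.3e-06% of the 130153810 reads when 3 reads are taken as the limit of counting error. Hoxd12 and Hoxd1 had no read in the loaded libraries either. Over all libraries Hoxb13 had 8 reads, Hoxd13 had 6 and Hoxc12 had 2. Among RNAs transcribed beside the Hox genes, Hotair of cluster C had a read in 27 of 66 control libraries and Evx1, at the end of cluster A, in 29. The symbol Hoxa11as, named for an antisense RNA of Hoxa11, had reads in 40 of 66, with means of 3.13 in the shell, 2.29 in the proximal and 4.07 in the mid-diaphysis. Without the strand setting, its reads and those of Hoxa11 cannot be told apart.

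**Figure D2:**
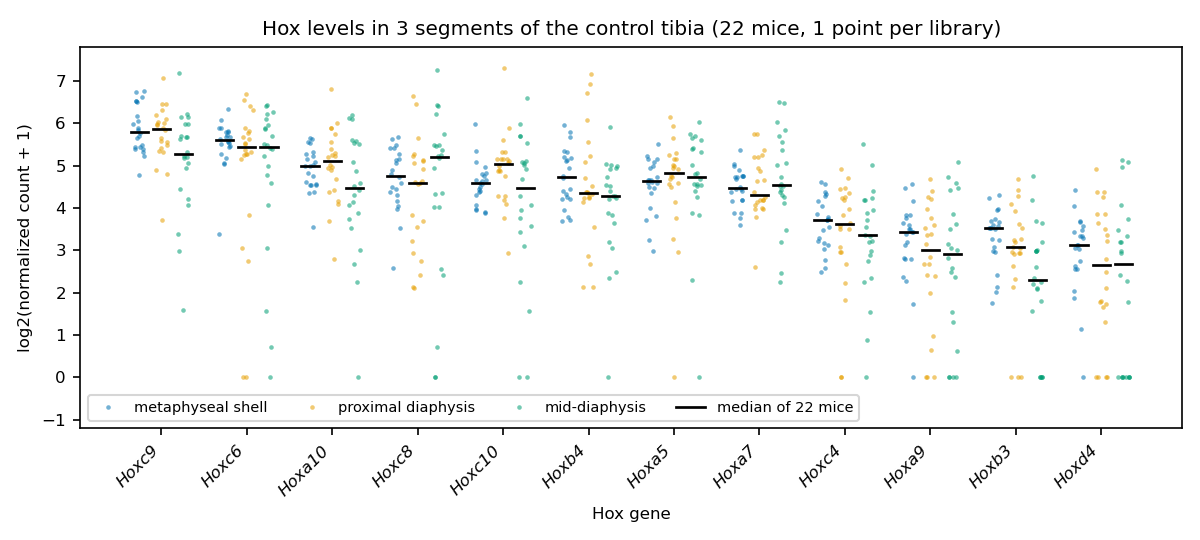
Level of the leading Hox genes in each control library, as log2(normalized count + 1), in the 3 segments (1 point per library, 22 mice). The segments overlap for every gene plotted, and mid-diaphysis points reach 0 for genes such as Hoxc6, Hoxc8 and Hoxa10 while shell points do not.

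Along the control tibia the Hox genes overlapped widely between segments, and Hoxc9 and Hoxc6 had the highest mean levels in each of the 3. Hoxc9 ran from 26.2 through a median of 54.6 to 107.3 in the shell. In the proximal diaphysis its lowest, median and highest values were 12.1, 56.9 and 132.9, and in the mid-diaphysis 2.03, 37.8 and 145. Every segment overlapped the others, and the mid-diaphysis held both the lowest and the highest library. Hoxc6 ran from 9.48 through 47.7 to 80.4 in the shell, from 0 through 42.3 to 101.5 in the proximal and from 0 through 42.5 to 85.2 in the mid-diaphysis. Its medians lay close together, and the libraries at 0 were diaphyseal.

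Hoxa10 had a lowest, median and highest value of 10.7, 30.8 and 49.6 in the shell, 5.97, 33.5 and 111.9 in the proximal, and 0, 21.2 and 72.0 in the mid-diaphysis. Hoxc10 had 13.7, 22.9 and 62.05 in the shell, 6.61, 31.6 and 156 in the proximal, and 0, 21.4 and 95.4 in the mid-diaphysis. For both group 10 genes the highest library and the highest median were proximal. Both highest values came from 1 library, the proximal diaphysis of the 7 d control limb of mouse 2. That library also held the highest Hoxb4 value, and Hoxc6 and Hoxc4 had no read in it. Hoxc8 ran from 5.00 through 26.2 to 50.1 in the shell, from 3.29 through 23.2 to 98.7 in the proximal, and from 0 through 35.7 to 153 in the mid-diaphysis. Its highest control library is the one that stands apart, and its mid-diaphysis mean of 37.96 was 32.5 without that library. Hoxb4 medians were 25.6 in the shell, 19.5 in the proximal and 18.4 in the mid-diaphysis, with a highest value of 143 in 1 proximal library. Hoxa5 medians were 23.8, 27.6 and 25.7, and Hoxa7 medians 21.2, 18.9 and 22.3, in the same order of segments. These medians differed by less than the range of any 1 segment.

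The spread between mice was wider in the diaphysis than in the shell, and this was not particular to Hox genes. Over all genes tested, the median SD of control log2 values was 0.585 in shell, 1.22 in proximal and 1.28 in mid-diaphysis libraries. Over the 9 members with a mean control level of at least 10, the coefficient of variation across 22 mice was 29.5% to 49.5% in the shell, with a median of 39.6%. It was 44.1% to 110% in the proximal diaphysis (median 64.7%) and 55.6% to 95.1% in the mid-diaphysis (median 75.8%), or 56.8% to 91.8% (median 74.6%) without the control library that stands apart. Counting error alone would give medians of 17.6%, 18.2% and 20.9%. The mean number of reads behind a value had medians over these members of 38.6, 37.5 and 33.7. For single members it differed more, as for Hoxc9 with 95.3 reads in shell and 51.7 in mid-diaphysis libraries, and Hoxb4 with 41.2 and 22.05. Library depth varied along with segment, and its part in the spread was not tested.

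Between the ends of the sampled bone, Hoxb2 was higher at the shell end than at mid-diaphysis, by 1.17 on the log2(normalized count + 1) scale (SE 0.31, 95% interval 0.53 to 1.81, 22 mice). Hoxb2, which acts in hindbrain patterning in the embryo, is a low member here. Its lowest, median and highest control values were 0.82, 6.15 and 14.8 in the shell, with reads in 22 of 22 libraries. They were 0, 2.63 and 25.1 in the proximal diaphysis (18 of 22) and 0, 2.30 and 16.3 in the mid-diaphysis (13 of 22). The segments overlap, and no shell library was at 0. The difference had an adjusted p of 0.0283 in limma over 13050 genes and was positive in 15 of 22 mice. It was the only call among the 22 members tested, or 4.55%, and 4.98% of all genes tested were called in this comparison, 4.59% as higher in the shell. The members' share is near that background. The call was lost with edgeR on the recovered reads (adjusted p 0.137, with 3.23% of all genes called), with a pseudocount of 5 (0.07003), without mouse 3 of 3 h (0.0537) and without mouse 2 of 24 h (0.0519). Without the 4 libraries that stand apart the difference was 1.08 (adjusted p 0.0419). In the loaded limbs, Hoxb2 was higher in the shell in 12 of 22 mice, with a mean difference of 0.07. Without the 3 loaded libraries that stand apart it was -0.05, and 9 of 19 mice were higher in the shell.

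No other tested member passed the test in this comparison. Hoxc11 did not pass the filter on low values and was outside it. It had reads in 19 of 22 shell, 9 of 22 proximal and 1 of 22 mid-diaphysis control libraries, and in 7, 2 and 0 of them after thinning to equal depth. Its mean levels were 1.23 ± 1.05, 1.38 ± 3.00 and 0.251 ± 1.18 normalized counts (SD, n = 22 each). With no filter, limma called Hoxc11 at 0.90 (adjusted p 0.0150) beside Hoxb2 at 1.17 (0.0271), and 5.16% of all genes. Of the 22 tested, 17 had a positive shell minus mid-diaphysis value, with a median of 0.65 against 0.17 over all genes tested. These signs depend on the log scale, since on the plain scale 13 of the 22 had the higher mean in the shell. Hoxc8, for example, had a log2 difference of 0.29 but mean counts of 27.8 (shell) and 37.96 (mid-diaphysis). At an unadjusted p under 0.05 there were 8 of 22 members, and 22.2% of all genes. Hoxa4 had a difference of 1.06 (limma adjusted p 0.0617), Hoxb3 of 1.10 (0.0867), Hoxb5 of 0.94 (0.0675) and Hoxc9 of 0.78 (0.0945). In edgeR Hoxa4 was at 1.13 (adjusted p 0.259), and in limma with a pseudocount of 5 it was at 0.42 (0.153). Hoxa4 passed the limma test without the 4 libraries that stand apart, at 1.22 with an adjusted p of 0.0261, where 5.43% of all genes were called. Without the same libraries Hoxb3 was at 1.21 (0.0674), Hoxb5 at 0.99 (0.0634) and Hoxc9 at 0.80 (0.0932). Among members with values on the other side were Hoxd9 at -0.39 (-0.25 without them), Hoxa7 at -0.19 and Hoxa11 at -0.13. In the loaded limbs the same difference was 0.92 for Hoxc9, positive in 18 of 22 mice, and 1.26 for Hoxb5, positive in 19 of 22. Without the 3 loaded libraries that stand apart it was 1.11 for Hoxc9 and 1.43 for Hoxb5, each positive in 17 of 19 mice. Other members repeated less well in these loaded limbs. Hoxa4 was at 0.70, with 12 mice higher in the shell and 7 lower, and Hoxb3 at 0.40, with 9 higher and 10 lower. Hoxc11 was at 0.04, with 10 higher and 5 lower.

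Some of the marker lists of other cell types also differed between these segments. In the same comparison 8 of 10 chondrocyte markers were called higher in the shell, with a median difference of 3.12. So were 4 of 6 endothelial, 3 of 5 osteoclast and 2 of 5 adipocyte markers, beside 4.59% of all genes tested. No osteocyte marker of 7 tested was higher and 1 was lower. The summed chondrocyte level was 584 to 7134 in the shell and 41.03 to 3232 in the mid-diaphysis. No marker of the chondrocyte list was at 0 throughout either segment. Their part in the Hoxb2 and Hoxc11 values was not tested.

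**Figure D3:**
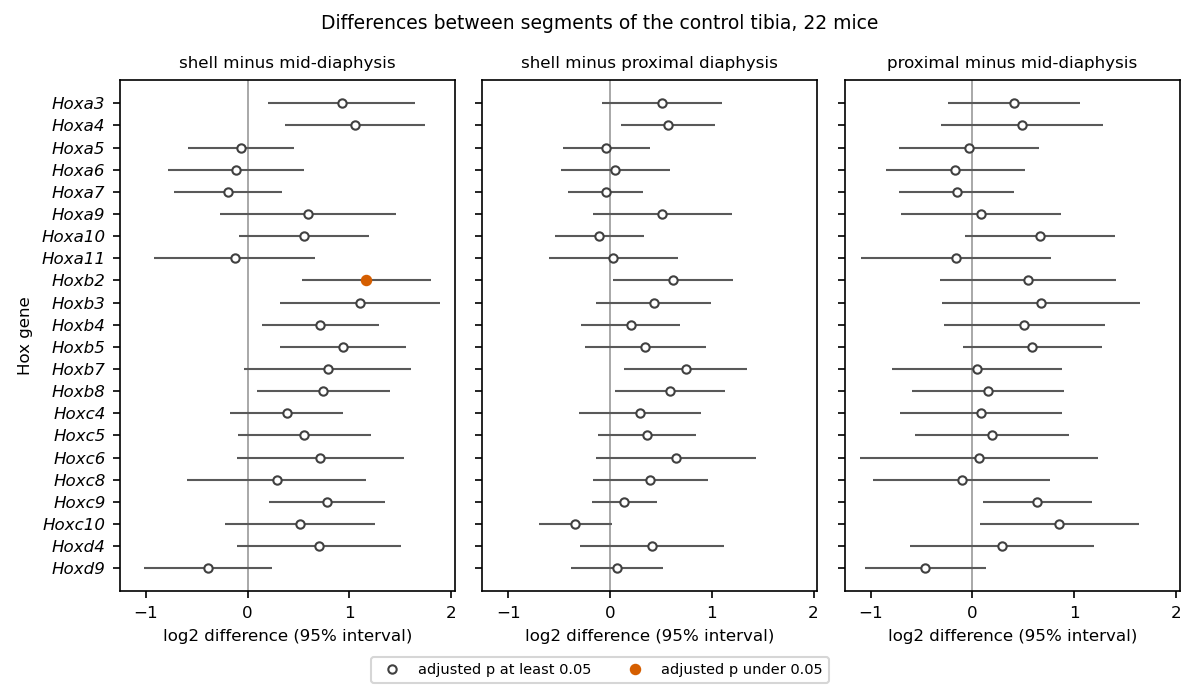
Difference between segments of the control tibia for each tested Hox gene, in log2(normalized count + 1), with 95% intervals over 22 mice, for the 3 pairs of segments. Shell minus mid-diaphysis values lie mostly above 0, led by Hoxb2 at 1.17, while most intervals of the other pairs span 0.

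Between the shell and the proximal diaphysis no member passed the test in limma or in edgeR, against 3.62% of all genes called by limma and 4.48% by edgeR. At an unadjusted p under 0.05 there were 4 members, and 23.6% of all genes. The median member value was 0.36 against 0.17 over all genes. The smallest adjusted p in limma was 0.130, for Hoxb7 at 0.74, followed by 0.133 for Hoxa4 at 0.57. Hoxc10, at -0.34, was on the proximal side. Between the proximal and mid-diaphysis there was also no call, with 0.0153% of all genes called by limma and 0.0766% by edgeR. Hoxc9 at 0.64 and Hoxc10 at 0.86 had an unadjusted p under 0.05, as had 8.21% of all genes, and the smallest adjusted p among members was 0.535.

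Genes that work with Hox proteins or control the clusters were read from lists. The TALE homeodomain factors, which bind DNA together with Hox proteins, showed no call in limma among 9 tested in any comparison of segments, with 1 to 3 at an unadjusted p under 0.05, where 8.21% to 23.6% of all genes had one. The calls that follow are few, 1 or 2 per list and comparison, beside the 4.98% of all genes called for shell against mid-diaphysis and the 3.62% for shell against proximal diaphysis. Of 14 tested limb patterning factors, Pitx1, a hindlimb identity gene, exceeded its mid-diaphysis level in the shell by 1.31 (limma adjusted p 0.0456). Tbx2 was lower in the shell than in the proximal diaphysis by a log2 value of -0.57 (adjusted p 0.0156) and Prrx1, a gene of limb mesenchyme, by -0.63 (0.0387). Of 19 Polycomb and Trithorax genes, whose products keep Hox genes off or on, Eed was lower in shell than mid-diaphysis pieces at -0.69 (0.0283). Ctcf, which bounds domains within Hox clusters, was higher in shell than proximal pieces at 0.66 (0.0469). Tbx5, the forelimb partner of Tbx4, had reads in 4 of 66 control libraries and Tbx4 of the hindlimb in 44.

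Control limbs of the 5 groups of mice were compared to see how stable the unloaded level was. Hoxc9 and Hoxb5 were called as different between the groups, but neither call held with every mouse left out in turn. Mean Hoxc9 per mouse was 31.1, 38.9, 41.3, 81.4 and 61.3 at 1 h, and 45.8, 43.8, 42.8 and 49.6 at 3 h. It was 58.6, 34.4, 81.1 and 66.2 at 24 h, 46.2, 31.3, 21.8, 50.8 and 45.8 at 5 d, and 95.2, 76.0, 79.2 and 73.6 at 7 d. All 4 mice of 7 d lay above every mouse of 3 h and 5 d. Hoxb5 was 0, 0.76, 5.37, 0.40 and 1.14 at 1 h, and 0.13, 2.29, 1.97 and 1.38 at 7 d. It was 4.43, 3.94, 2.59 and 4.87 at 3 h, 3.78, 6.31, 4.92 and 4.75 at 24 h, and 4.12, 4.93, 3.79, 3.08 and 2.45 at 5 d. Hoxb5 was thus low at 1 h and 7 d except in 1 mouse. That was mouse 3 of 1 h, which gave the control library that stands apart.

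The limma F test over the 5 groups gave an adjusted p of 0.0392 for Hoxc9 and 0.0454 for Hoxb5, and 0.0597 for Hoxc10. That is 2 of 22 members, where 21.4% of all genes tested were called. In edgeR, 7 of 22 members and 32.6% of all genes were called. The Hoxc9 call was lost with TMM scaling (adjusted p 0.0936), with no filter on low values (0.0811) and without the 4 libraries that stand apart (0.0508). The Hoxb5 call was lost with a pseudocount of 0.5 (0.0517) or 5 (0.0510) and with no filter (0.0740). Without the 4 libraries that stand apart, mouse 3 of 1 h leaves this comparison and the limma adjusted p of Hoxb5 was 0.00491. Leaving out 1 mouse at a time gave 0 to 3 called members, and the count moved by over 1.5 times for 18 of 22 mice. The exceptions were mice 3 and 4 of 1 h, mouse 3 of 3 h and mouse 5 of 5 d. Even among these, the Hoxc9 call was lost without mouse 3 of 1 h (limma adjusted p 0.0508). In this comparison that is the same fit as the one without the 4 libraries that stand apart. The Hoxb5 call was lost without mouse 4 of 1 h (0.0769). With 1 mouse left out, Hoxb5 stayed called only without mouse 3 of 1 h, mouse 3 of 3 h, mouse 5 of 5 d, or mouse 2 or 3 of 7 d. The groups are different mice, so time, animals and any handling by group cannot be told apart.

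Loading was followed by no change in a Hox gene that passed the test at any of the 5 times. In the mean of the 3 segments, 0 of 22 members were called in limma at 1 h, 3 h, 24 h, 5 d and 7 d. Of all genes tested, 0.00766% were called at 1 h, 0.069% at 7 d and none at the other times. Over the 5 times, 5 of 110 member tests (4.55%) had an unadjusted p under 0.05, against 6.52% of the tests over all genes. By segment and time, none of 330 member tests in 15 comparisons passed. At an unadjusted p under 0.05 there were 18 (5.45%), and 5.11% of the tests over all genes. edgeR on the recovered reads also called no member in any loading comparison, and of all genes it called 0.069% at 7 d in the mean of segments and 0.00766% in the shell at 5 d.

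**Figure D4:**
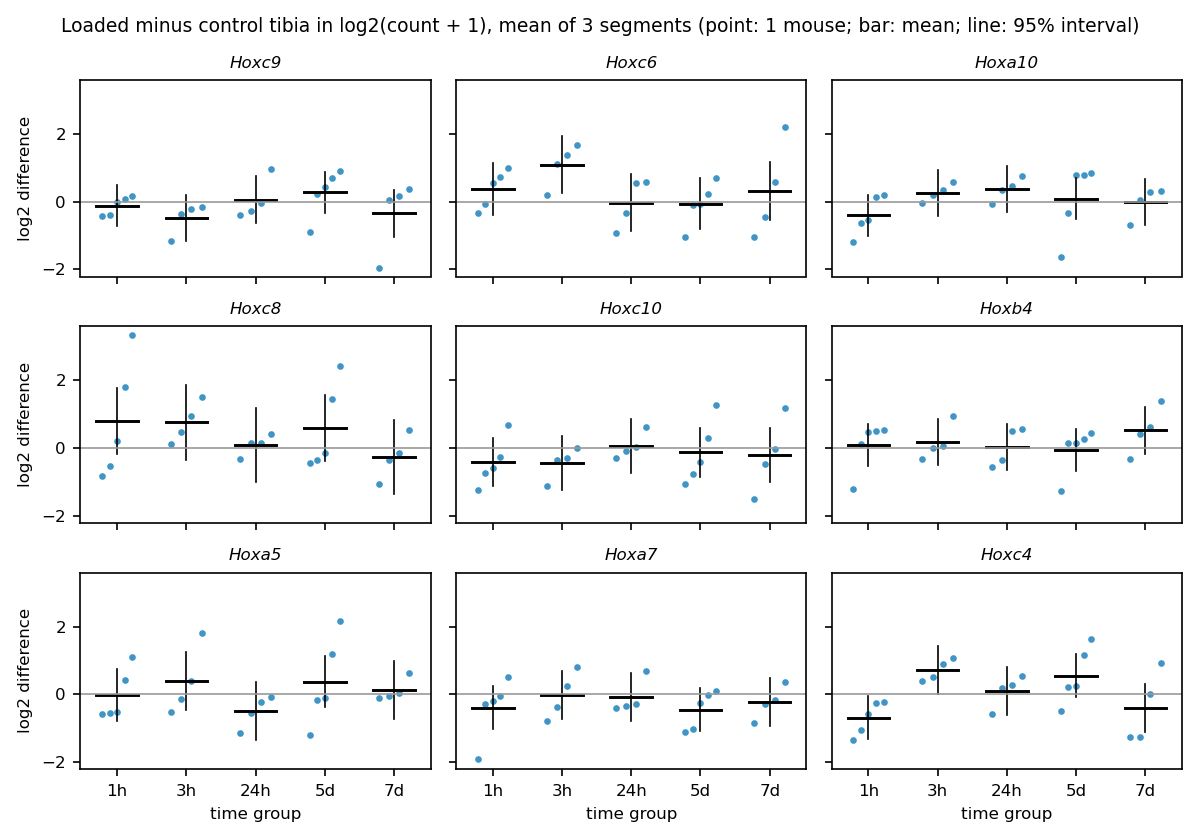
Loaded minus control difference in log2(normalized count + 1), mean of the 3 segments, at 5 times; points are mice, bars the mean and lines the 95% interval. Points scatter on both sides of 0 for most genes and times, and the 4 mice of Hoxc6 at 3 h lie above 0 with a mean of 1.09.

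The largest positive mean was that of Hoxc6 at 3 h. Loaded levels were 46.2, 52.2, 27.01 and 62.4 in the 4 mice and control levels 41.5, 29.9, 21.04 and 21.8. The loaded limb was higher in 4 of 4 mice, although the groups overlap. The log2 difference was 1.09 (SE 0.41) with a limma adjusted p of 0.615. In mouse 3 the control proximal library had 0 reads of Hoxc6 and the loaded one 43, and this pair raises the log2 mean. Hoxc4, its neighbour, was at 14.7, 11.2, 8.92 and 18.6 in loaded limbs at 3 h and at 12.01, 8.06, 5.66 and 8.43 in control limbs. That is 4 of 4 mice higher, at 0.71 (adjusted p 0.638). Here too the control proximal library of mouse 3 had 0 reads, against 13 in the loaded one. At 1 h the same gene had 5 of 5 mice lower, with 7.13, 18.6, 18.4, 8.49 and 3.61 in loaded against 9.02, 20.01, 27.8, 14.6 and 8.54 in control limbs. The difference was -0.69 (adjusted p 0.999), or -0.87 (0.834) without the 1 h libraries that stand apart. In the F test between times, Hoxc4 had an unadjusted p of 0.0223 and an adjusted p of 0.733.

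Hoxb3 at 7 d was at 11.9, 9.13, 10.9 and 11.8 in loaded limbs and at 6.17, 5.98, 5.82 and 14.5 in control limbs. On the plain scale mouse 4 had the lower loaded mean, and in the mean of log2 differences over segments all 4 mice were above 0. Each mouse had a control diaphysis library with 0 reads of Hoxb3, proximal in mice 1 and 2 and mid-diaphysis in mice 3 and 4. Their loaded partners had 14, 16, 9 and 5 reads, and these pairs raise the log2 mean. In mouse 2 the loaded mid-diaphysis library had 0 reads, against 6 in the control one. The difference was 0.97 (SE 0.36, limma adjusted p 0.295). The largest negative mean was that of Hoxd4 at 24 h, at -0.87 with an adjusted p of 1.00. Its loaded levels were 11.1, 9.72, 8.41 and 6.22 and its control levels 15.7, 8.31, 20.7 and 9.59, with 3 of 4 mice lower. Hoxc9, the highest member, had values between -0.48 (3 h) and 0.27 (5 d), and Hoxa10 between -0.41 (1 h) and 0.38 (24 h). Without the 4 libraries that stand apart, Hoxc9 was at 0.61 at 5 d, and Hoxa10 at -0.51 at 1 h and 0.42 at 5 d. Over all times the largest values were Hoxc8 at 0.39, Hoxc6 at 0.34 and Hoxb3 at 0.32, none past the test. Without the 4 libraries that stand apart these were 0.43, 0.40 and 0.26 (limma adjusted p 0.765 each).

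The unadjusted 95% interval of a member reached a median of 0.75 on the log2 scale to each side of its mean at 1 h and 5 d, from 0.60 to 1.13 over the 22 members. It reached 0.84 at 3 h, 24 h and 7 d, from 0.68 to 1.27, and 0.36 over all times together. The adjusted test over 13050 genes asks for more than these intervals, and Hoxc6 at 3 h and Hoxb3 at 7 d lay beyond them without being called. Single segments had wider swings. The largest was Hoxd4 at -2.85 in the mid-diaphysis at 24 h (limma adjusted p 1.00), followed by Hoxa9 at -2.33 in the mid-diaphysis at 5 d (0.648). The Hoxd4 value rests on 0, 2, 0 and 1 reads in the loaded libraries of mice 1 to 4, against 42, 3, 29 and 2 in control. Others were Hoxa4 at 2.31 in the mid-diaphysis at 5 d (limma adjusted p 0.648), Hoxb4 at 2.23 in the mid-diaphysis at 7 d (0.527) and Hoxa11 at -2.07 in the proximal diaphysis at 1 h (1.00). In 1 model over all libraries with a mouse block, Hoxa4 passed the test at 5 d (adjusted p 0.0485), where that model called 2.95% of all genes. Hoxb4 passed at 7 d (0.0254), where it called 2.68%. The Hoxa4 and Hoxa9 values at 5 d include the loaded libraries of mice 4 and 5 that stand apart. Hoxa4 had 16 and 9 reads there, against 0, 3 and 4 in mice 1, 2 and 3. In the control mid-diaphysis libraries of mice 1 to 5 it had 0, 0, 0, 3 and 0 reads. The 1 model was not run without these libraries. It shares 1 spread over segments, though the median SD of control log2 values was 0.585 in shell and 1.28 in mid-diaphysis libraries. No member's response differed between segments past the test in limma or edgeR, and none of all genes passed it. At an unadjusted p under 0.05 there were 1 of 22 members for shell minus mid-diaphysis (2.04% of all genes), 2 for shell minus proximal (6.81%) and 1 for proximal minus mid-diaphysis (3%). The smallest adjusted p among members in limma was 0.678, between shell and proximal diaphysis, shared by Hoxd4 with a difference in response of -0.87, Hoxc10 with 0.61, Hoxb2 with -0.68 and Hoxb7 with -0.81. Hoxb2 had a shell minus mid-diaphysis response of -1.11 (unadjusted p 0.0279, adjusted p 1.00), with an unadjusted p of 0.0526 without the 4 libraries that stand apart.

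The libraries that stand apart moved several of these values, none of them called. Without them, Hoxb7 in the mid-diaphysis at 5 d went from 0.57 to -1.31 and Hoxb3 in the mid-diaphysis at 1 h from -0.49 to 0.84. Hoxd4 in the mid-diaphysis at 5 d went from 0.98 to -0.30. Hoxc8 and Hoxc6 in the mid-diaphysis at 1 h went from 1.60 to 2.44 and from 1.58 to 2.72. The TALE, limb patterning and Polycomb and Trithorax lists had no call under loading in limma, with 0 to 4 genes of a list at an unadjusted p under 0.05.

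The same 4 mid-diaphysis libraries had 4 of 39 Hox members (10.3%) above all other 128 libraries and 0 below them all, while 35 overlapped. Of all 23412 symbols, 1.91% lay above and 0.739% below. Hoxc8 was at 207 in the 1 h loaded limb of mouse 2, 153 in the 1 h control limb of mouse 3, and 189 and 146 in the 5 d loaded limbs of mice 4 and 5. In the other 128 libraries its median was 27.2 and its highest value 98.7. In the same order Hoxc13, a gene of hair and nail in the adult, was at 9.30, 4.10, 22.97 and 9.55 (highest elsewhere 2.63). Hoxd11 was at 6.82, 5.86, 2.09 and 6.69 (0.774) and Hoxd10 at 3.72, 2.34, 2.09 and 5.73 (1.41). Both D genes are at or near 0 in the remaining bone libraries.

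**Figure D5:**
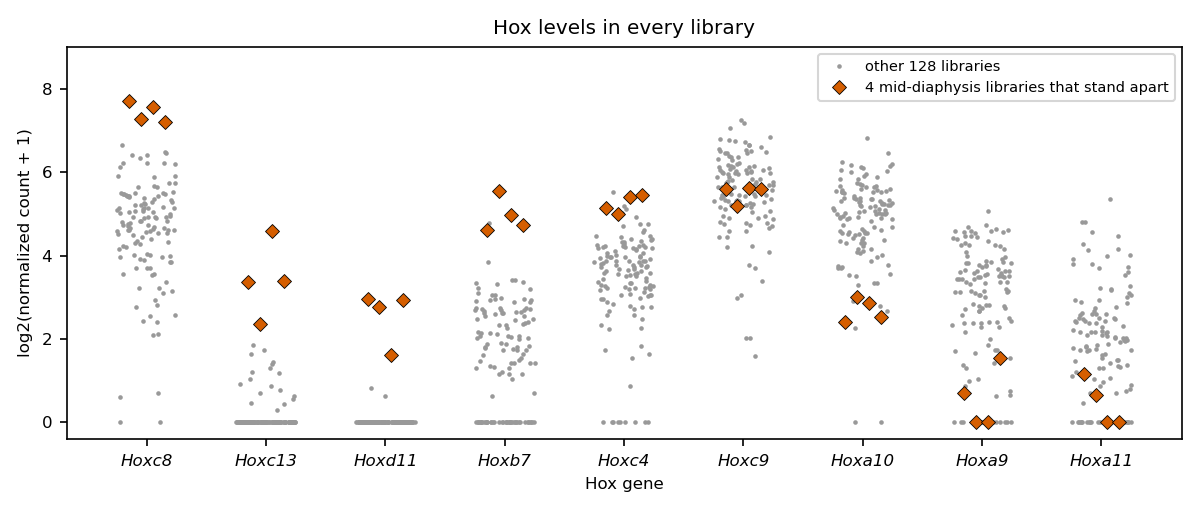
Level of selected Hox genes in every library, as log2(normalized count + 1), with the 4 mid-diaphysis libraries that stand apart marked against the other 128. The 4 libraries lie above all others for Hoxc8, Hoxc13 and Hoxd11, within the others for Hoxc9, and low among them for Hoxa10.

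Other members of clusters B, C and D were also high in these libraries. Hoxb7 was at 23.6 to 45.7, with 1 other library above the lowest of them. Hoxc4 was at 31.1 to 42.98 against a median of 11.5 elsewhere, Hoxc6 at 71.7 to 99.2 against 44.4, and Hoxd9 at 8.20 to 19.5 against 0. Hoxc9 was alike, at 35.2 to 48.04 against a median of 48.8. The 5′ side of cluster A was low, with Hoxa10 at 4.34 to 7.03 against 31.6, Hoxa9 at 0 to 1.91 against 8.07 and Hoxa11 at 0 to 1.24 against 2.92. The ratio of Hoxc8 to Hoxc9 was 3.06 to 4.35, where the other libraries had a median of 0.556 and a highest value of 3.5.

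Among genes of the TALE and limb lists, Meis2 and En1 also lay above all other libraries. Meis2, a TALE partner of Hox proteins, was at 210 to 275 (highest elsewhere 34.9) and En1, a homeobox gene of ventral limb ectoderm, at 52.5 to 92.01 (9.21). Pitx1, Shox2 and Tbx2 were low but overlapped the others. Pitx1 was at 0 to 1.91 against a median of 7.53 elsewhere, Shox2, a gene of the proximal limb skeleton, at 5.73 to 8.06 against 170, and Tbx2 at 5.86 to 12.5 against 100.7. The summed osteoclast level was 143 to 461 where all libraries had a median of 6206, and the endothelial level 58.27 to 112.5, where it was 407. Whether tissue other than bone in these pieces gave the Hox values was not tested.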

How the data were processed

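RNA from cortical bone was sequenced as 3′ mRNA libraries, per the labels' protocols. The submitters' processing notes name STAR, FastQC and DESeq2 and build mm10. The counting tool, annotation and strand setting are not given in the sources used here. The deposited values are a signal: read counts divided by a factor per library, as the authors gave them. Each library's values were whole multiples of 1 step within 0.02 (100% of values), so whole reads were recovered for every library. No libraries were identical, and 27 symbols appear as dates. Depths are given with the results, and counting limits cover counting error only.

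Values were transformed as log2(value + 1), and fold changes on this scale understate changes of low genes. Genes were tested where 4 or more libraries had a value of 10 or above (13050 genes, 22 of 39 Hox members). A member that passed through high libraries only had to vary. Hoxb7 (6 libraries at 10 or above) and Hoxd9 (5) would not have passed without the libraries that stand apart. Hoxb9 and Hoxa2 were expressed but not tested. limma 3.58.1 (trend, R 4.3.3) was fitted to differences within each mouse over all genes, two-sided, with Benjamini-Hochberg adjustment within each comparison and a threshold of 0.05. edgeR 4.0.16 quasi-likelihood tests on the recovered reads, with the authors' scaling as offset, were an alternative, along with other pseudocounts, filters, TMM scaling, fits without the pairing, and each mouse left out. Both methods were also run on simulated counts, edgeR on a subset of genes. The simulation gave all genes and segments the same dispersion and held no libraries that stand apart. It therefore cannot show how the methods perform at the wider spread of the diaphysis. Python 3.11.15 was used with numpy 2.4.6, pandas 2.3.3 and scipy 1.17.1.

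Limbs and segments are paired because they share an animal, per the labels. Libraries of the same mouse deviated from their group means with a median correlation of 0.0596, against -0.0232 between mice, and 25 of 66 pairs were above 0.1. All 39 members may be named; values by library are given for the highest members and those called. Genes of lists are named where called, with up to 4 others of a list. Members and lists were chosen with earlier results of these data known. P-values set a difference against the spread between mice.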

Additional observations from a re-analysis of the deposited data

Results flagged for a closer look

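In 50 groups of loaded minus control differences (10 members at 5 times, mean of segments), 6 had a mouse far from the others by Dixon's criterion. Chance alone flags about 1 group in 20. Hoxb4 was at -1.21 in mouse 4 of 1 h (loaded 16.7, control 25.6), while the other mice lay between 0.12 and 0.54, or up to 0.78 without the pairs of mice 2 and 3 that hold a library that stands apart. It was at -1.27 in mouse 4 of 5 d (24.1 against 46.3), with the others between 0.13 and 0.45. The loaded mid-diaphysis library of this mouse is 1 of the 4 that stand apart. Without pairs that hold such a library, mouse 4 was at -0.75 and the others between -0.04 and 0.45. Hoxb2 was at 1.86 in mouse 1 of 5 d (5.64 against 0.956), with the others between -1.32 and -0.56, or up to 0.14 without those pairs. Hoxc9 was at -1.94 in mouse 1 of 7 d (39.2 against 95.2), with the others between 0.05 and 0.36. Hoxa5 was at 0.64 in mouse 3 of 7 d (74.4 against 48.6), with the others between -0.10 and 0.03. Hoxa7 was at 0.68 in mouse 4 of 24 h (32.2 against 16.6), with the others between -0.40 and -0.29.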

How the results depend on the processing

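For shell against mid-diaphysis, 1 member was called. The count was 0 with a pseudocount of 5, 0 with edgeR and 0 with a filter at a mean of 20, under which Hoxb2 was not tested. It was 2 with no filter (Hoxb2 and Hoxc11), 2 with TMM scaling, and 2 without the 4 libraries that stand apart. With no replicate block, that is without the pairing by mouse, 3 members were called. With 1 model over all libraries and a mouse block, which also pools loaded and control libraries, 4 were called. Leaving out 1 mouse at a time gave 0 to 3. Hoxa4 passed the test without mouse 3 (adjusted p 0.0261) or mouse 4 (0.0345) of 1 h and without mouse 2 of 3 h (0.0490). For shell against mid-diaphysis, the fit without mouse 3 of 1 h is the same as that without the 4 libraries. For loading by segment and time, 0 became 2 in the 1 model over all libraries. For control limbs between times, 2 became 1 with a pseudocount of 0.5, 1 with no filter, 1 with a filter at a mean of 20, 1 with TMM scaling, 3 with a pseudocount of 5 (Hoxb4, Hoxc10 and Hoxc9) and 7 with edgeR, and 0 to 3 with 1 mouse left out. It stayed at 2 without the 4 libraries that stand apart, with Hoxa4 in place of Hoxc9. The count of expressed members was 23 and fell to 15 with reads thinned to 1 depth, and was 20 with a value of at least 1 required. The cause of these changes was not tested. All other comparisons gave 0 called members under every setting run, and the block changed no other call. Without the 4 libraries, mice lacking a segment left the means of segments. Fits without the pairing were not run for control limbs between times. No single-member value reversed a call. Depth limits the low members, whose values rest on few reads.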
